A study of Mus musculus with 96 samples.

Results

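The liver macrophage libraries of the ScapKO mice were compared across the day. They were the 12 of the 96 libraries in the series that carried this genotype and cell type, with 3 libraries at each of zeitgeber time (ZT, hours after lights on) 4, 10, 16 and 22. ZT4 and ZT10 fell in the light phase, when mice rest, and ZT16 and ZT22 in the dark phase, when they feed. The mice were adult C57BL/6J males kept for 4 weeks on a high fat and sucrose diet (D12492i), and all 12 libraries shared the genotype written ScaphKO in the labels. The study deletes genes in hepatocytes with an adeno-associated virus in which the hepatocyte promoter TBG drives CRE, so the macrophages themselves were not the target of the deletion, and how the line with Scap alone floxed was made is not given in the sources used here. No control library stands in the same normalised table, and the time points were therefore compared only with each other.

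Scap is the sterol-sensing escort protein that carries the transcription factor SREBP to the Golgi, and hepatocytes that lack it cannot switch on the SREBP programme of cholesterol and fatty acid synthesis. Liver macrophages are mostly Kupffer cells, which sit in the sinusoids, clear particles and old red cells from portal blood and take up lipid. Like most cells they hold a molecular clock. ARNTL (BMAL1) paired with CLOCK or NPAS2 switches on the Per, Cry and Nr1d genes, the PER and CRY proteins block that pair, and the REV-ERB receptors (Nr1d1, Nr1d2) repress Arntl against the ROR receptors. DBP, TEF and HLF activate, and NFIL3 represses, a further set of output genes.

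Levels are given as RPKTM, the study's count of reads per kilobase of transcript at a fixed total of reads, after a quantile normalisation that gave all 12 libraries the same set of values. One library stood apart before any test. ZT22 replicate 2 correlated with the other 11 at r = 0.72 to 0.87 over all tested genes, whereas pairs of the other 11 reached 0.89 to 0.96. Its summed level of the 12 pan-macrophage markers was 15731 RPKTM, against 49837 to 83252 in the others, and that of the 15 Kupffer cell markers was 22757, against 81607 to 137509.5. The 12 sinusoidal endothelial markers summed to 29902 RPKTM in this library and to 3031 to 9685 in the others. The 12 stellate cell markers summed to 7084, against 958 to 2389.6. In the 11 remaining libraries macrophage genes were abundant, with Clec4f, a lectin of Kupffer cells, at 23962 to 43548 RPKTM and the receptor Csf1r at 18244 to 25165. In bulk RNA fewer cells of a type and less RNA per cell cannot be told apart. For each gene list with a limma count below, that count is therefore also given without ZT22 replicate 2. Counts of members highest at a time, where given, are given without it as well.

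**Figure D1:**
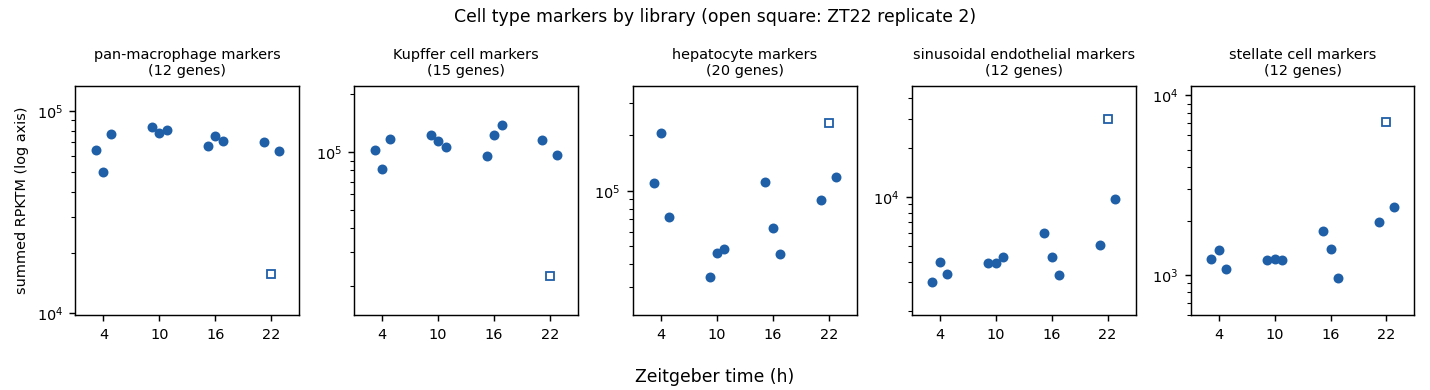
Summed RPKTM (log axis) of 5 marker lists in each library by zeitgeber time, with 3 libraries at each time. ZT22 replicate 2 (open square) lies below every other library for both macrophage lists and above every other library for the hepatocyte, endothelial and stellate lists, and the 3 ZT10 libraries are among the lowest for hepatocyte markers.

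Hepatocyte RNA also differed between the times. The 20 hepatocyte markers, led by Alb and the apolipoproteins, summed to 110093, 206514 and 71730.3 RPKTM at ZT4, to 34011, 46298 and 48466 at ZT10, to 111151, 62972 and 45252 at ZT16 and to 89555, 231820.1 and 118100.5 at ZT22. The ZT10 libraries were low, ZT4 replicate 2 and ZT22 replicate 2 were the highest, and ZT16 replicate 3 lay within the ZT10 range. Albumin itself (Alb) held 43548, 70232 and 23962 at ZT4, 10156, 16510 and 15171 at ZT10, 43548, 25165 and 16047 at ZT16, and 43548, 70232 and 43548 at ZT22 RPKTM, and the lowest ZT22 library stood above the highest ZT10 library. Equal values, such as 43548, mark an equal rank in libraries that share the same set of values, and not an equal amount. Of the 20 markers, 12 had an unadjusted p below 0.05 in the test over time (8.58% of all genes), and 13 without ZT22 replicate 2 (10.9%). Their highest mean was at ZT22 for 14 (26% of all genes) and at ZT4 for 6 (18%). Without ZT22 replicate 2 it was at ZT22 for 4 (22.9%) and at ZT4 for 16 (23.5%). The 12 sinusoidal endothelial markers all had their highest mean at ZT22 (26% of all genes), 10 of 12 without ZT22 replicate 2 (22.9%). An unadjusted p below 0.05 was found for 10 of them (8.58% of all genes), and for 10 without that library (10.9%). Of the 12 stellate markers 9 had such a p, and 4 without that library. Markers of T and natural killer cells summed to 24.3 to 89.2 RPKTM over 13 genes, and those of cholangiocytes to 24.1 to 77.7 over 6, with Cd3d, Cd3g, Krt19 and Epcam below the expression filter and Cd4, which reached 48.6, and Spp1, which reached 70.4, above it. The 10 neutrophil markers summed to 169.9 to 557.7. Most of this was Csf3r, the receptor of a granulocyte growth factor, at 143 to 534 RPKTM, while 8 of the 10, S100a8 and S100a9 among them, were below the filter. The part of these other cells in the results that follow was not tested.

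The question across the day was which genes differed between the 4 time points. After keeping 1 transcript for each of 25095 gene symbols and asking for more than 5 RPKTM in at least 3 libraries, 13930 genes were tested on log2(RPKTM + 1) with a moderated F-test (limma), adjusted by Benjamini-Hochberg over all of them. None passed an adjusted p below 0.05, with or without ZT22 replicate 2. At an unadjusted p below 0.05 there were 1195 genes (8.58%) with all 12 libraries and 1520 (10.9%) without that library. The lowest adjusted p was 0.523 with 12 libraries and 0.0631 without ZT22 replicate 2. The labels do not say whether replicates were separate animals, so every p below measures the spread between these libraries.

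The 2 contrasts between times 12 h apart also gave no call with all libraries. Between ZT16 and ZT4 no gene passed the adjusted threshold (limma), and 88 genes (0.632%) were higher and 171 (1.23%) lower at ZT16 at an unadjusted p below 0.05. Without ZT22 replicate 2, which enters this contrast through the residual spread alone, these were 302 and 407 genes. Between ZT22 and ZT10 none passed with 12 libraries, and 1197 (8.59%) were higher and 1340 (9.62%) lower at ZT22 unadjusted, and 591 (4.24%) and 641 (4.6%) without ZT22 replicate 2. This contrast rested on single libraries. Without ZT22 replicate 1, which leaves ZT22 replicate 2 and replicate 3, 2191 genes passed the adjusted threshold, 1128 of them higher at ZT22, and without ZT22 replicate 2, 3 genes passed. Over all genes the highest mean fell at ZT4 for 18%, at ZT10 for 34.8%, at ZT16 for 21.2% and at ZT22 for 26%, and these shares are the background for the peak times below. Without ZT22 replicate 2 they were 23.5%, 32.3%, 21.2% and 22.9%.

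The rank test that looks for a 24 h wave, JTK_CYCLE, was run in the way described for the study, with each series entered 2 times in a row. Entering a series 2 times makes every p smaller without adding data, so counts from it, here and below, are a description only. JTK_CYCLE called 2435 genes (17.5%), of which 1190 (8.54%) peaked at ZT10 and 944 (6.78%) at ZT22, and 145 (1.04%) at ZT4 and 156 (1.12%) at ZT16. Without ZT22 replicate 2 it called 1363 genes and without ZT22 replicate 1 it called 3831. With each series entered 1 time it called 473 (3.4%), and after adjustment over genes it called 0.

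Among the clock genes, 18 of the 20 listed members passed the expression filter, and 9 of them (50%) had an unadjusted p below 0.05 against 8.58% of all genes. Without ZT22 replicate 2 there were 10 (55.6%, against 10.9%), 8 of them shared with the 9. The 3 libraries at the highest time all lay above the 3 at the lowest time for 12 of the 18 clock genes, against 33.3% of all genes, and without ZT22 replicate 2 for 12 of the 18, against 43.3%. JTK_CYCLE called 11 with the series entered 2 times (17.5% of all genes) and 2, Nr1d1 and Tef, with it entered 1 time (3.4% of all genes). None passed over all genes: the adjusted p of every gene named in this report was 0.523 or higher with 12 libraries (limma F). The lowest time was ZT10 for 11 of the 18 and ZT22 for 5 (10 and 6 without ZT22 replicate 2). Arntl2 and Rorb stayed below the filter, with 1 library and no library over 5 RPKTM. In what follows the distance between highest and lowest time mean is given on the log2(RPKTM + 1) scale with its SE from the limma fit, as a description, since both times were picked from the same values. Each gene is given with its p adjusted over all 13930 genes, and it is said where the unadjusted p was below 0.05.

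The activators had their highest means in the dark phase. Arntl, at chr7:120351025-120457640 (mm9, plus strand), held 144, 71.2 and 102 at ZT4, 50.8, 62.9 and 81.0 at ZT10, 73.7, 56.6 and 69.7 at ZT16, and 114, 323 and 106 at ZT22 RPKTM. Its ZT22 libraries all lay above its ZT10 libraries, by 1.3 ± 0.41, and ZT22 replicate 2 was the highest of all. The limma F-test gave Arntl an unadjusted p below 0.05, adjusted p = 0.548 with 12 libraries and an adjusted p = 0.447 without that library, where the distance was 0.78. Npas2, the partner that can stand in for CLOCK, was near 0 outside ZT22, with 1.78, 0 and 3.01 at ZT4, 1.89, 0 and 0 at ZT10, 3.12, 0 and 0 at ZT16, and 9.84, 104 and 10.1 at ZT22 RPKTM (limma F, unadjusted p below 0.05, adjusted p = 0.523, and adjusted p = 0.517 without ZT22 replicate 2). Clock moved less, with 453, 415 and 393 at ZT4, 349, 383 and 362 at ZT10, 493, 504 and 530 at ZT16, and 485, 533 and 385 at ZT22 RPKTM and a distance of 0.48 ± 0.17 (limma F, adjusted p = 0.619).

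The repressors of the PER and CRY families did not share 1 time. Per3, at chr4:150377764-150418774 (mm9, minus strand), held 50.8, 127 and 94.5 at ZT4, 135, 116 and 89.2 at ZT10, 155, 219 and 239.6 at ZT16, and 72.8, 83.6 and 92.4 at ZT22 RPKTM, with all 3 ZT16 libraries above every library of the other times. Its ZT16 mean stood 1.27 ± 0.33 above ZT22 (limma F, unadjusted p below 0.05, adjusted p = 0.523, and adjusted p = 0.281 without ZT22 replicate 2). Per2 held 68.1, 206 and 89.2 at ZT4, 89.3, 68.7 and 204 at ZT10, 228, 262 and 267 at ZT16, and 88.6, 389.6 and 177 at ZT22 RPKTM (adjusted p = 0.644 by limma F, and adjusted p = 0.447 without ZT22 replicate 2). The 3 ZT16 values of Per2 lay close together while each other time spread by more. Cry1, which acts late in the cycle as a repressor, held 61.4, 26.0 and 25.1 at ZT4, 16.7, 36.6 and 47.5 at ZT10, 73.9, 64.5 and 55.8 at ZT16, and 62.5, 144 and 129.9 at ZT22 RPKTM. It was 1.74 ± 0.47 higher at ZT22 than at ZT10 (limma F, unadjusted p below 0.05, adjusted p = 0.523, and adjusted p = 0.397 without ZT22 replicate 2). Per1, which also answers to glucocorticoids, held 648, 533 and 276 at ZT4, 225, 253 and 203 at ZT10, 402, 300.3 and 265 at ZT16, and 106, 619.9 and 500.1 at ZT22 RPKTM, so ZT22 alone covered most of its range and the limma F-test gave an adjusted p = 0.731. Cry2 (adjusted p = 0.754) and Ciart (adjusted p = 0.851), another repressor, did not reach an unadjusted p below 0.05 in the limma F-test.

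The REV-ERB genes were lowest at ZT22, and 1 of them had the smallest p of the clock genes. That gene, Nr1d2 (REV-ERBβ), at chr14:19036570-19071620 (mm9, minus strand), held 203, 334 and 244 at ZT4, 356, 495 and 302 at ZT10, 371, 598 and 679 at ZT16, and 199, 152 and 156 at ZT22 RPKTM. All 3 ZT22 libraries, ZT22 replicate 2 among them, lay below all 9 others, and ZT16 stood 1.66 ± 0.28 above ZT22 (limma F, unadjusted p below 0.05, adjusted p = 0.523, and adjusted p = 0.223 without that library). Nr1d1 (REV-ERBα), at chr11:98629246-98636691 (mm9, minus strand), peaked earlier, with 80.1, 162 and 89.3 at ZT4, 136, 144 and 112 at ZT10, 87.4, 71.7 and 75.8 at ZT16, and 31.3, 79.0 and 16.7 at ZT22 RPKTM. ZT22 replicate 1 and replicate 3 were the lowest of all, while ZT22 replicate 2 lay among the ZT16 values. For Nr1d1 the limma F-test gave an unadjusted p below 0.05, adjusted p = 0.523, and an adjusted p = 0.155 without ZT22 replicate 2, where the distance from ZT10 to ZT22 widened from 1.9 ± 0.46 to 2.46. Rora, which opposes them on the same DNA elements, held 144, 233 and 63.1 at ZT4, 42.7, 81.6 and 76.9 at ZT10, 209.6, 133 and 104 at ZT16, and 97.7, 389 and 173 at ZT22 RPKTM and was highest in ZT22 replicate 2 (limma F, adjusted p = 0.619).

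Among the output factors, Tef at chr15:81641844-81657293 (mm9, plus strand) held 215, 429 and 225 at ZT4, 478, 386 and 398 at ZT10, 563, 726 and 694 at ZT16, and 412, 320 and 393 at ZT22 RPKTM. All 3 ZT16 libraries lay above the other 9, and the mean stood 1.26 ± 0.26 above ZT4 (limma F, unadjusted p below 0.05, adjusted p = 0.523, and adjusted p = 0.234 without ZT22 replicate 2). Dbp held 32.7, 152 and 79.1 at ZT4, 127, 103 and 101 at ZT10, 65.2, 93.0 and 115 at ZT16, and 29.0, 39.1 and 31.7 at ZT22 RPKTM, with the 3 ZT22 libraries and ZT4 replicate 1 low and the rest higher (limma F, unadjusted p below 0.05, adjusted p = 0.523). Nfil3, the repressor on the same D-box elements, held 68.0, 75.5 and 16.1 at ZT4, 7.84, 2.74 and 41.8 at ZT10, 121, 52.5 and 33.0 at ZT16, and 27.6, 988 and 155 at ZT22 RPKTM (limma F, unadjusted p below 0.05, adjusted p = 0.565). Its ZT22 values ran from 28 to 988, with ZT22 replicate 2 the highest. The distance of Nfil3 from ZT10 to ZT22 fell from 3.87 to 2.58 without that library, and ZT22 remained its highest time. Hlf (adjusted p = 0.97), Bhlhe40 (adjusted p = 0.842) and Bhlhe41 (adjusted p = 0.66) did not reach an unadjusted p below 0.05 in the limma F-test.

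**Figure D2:**
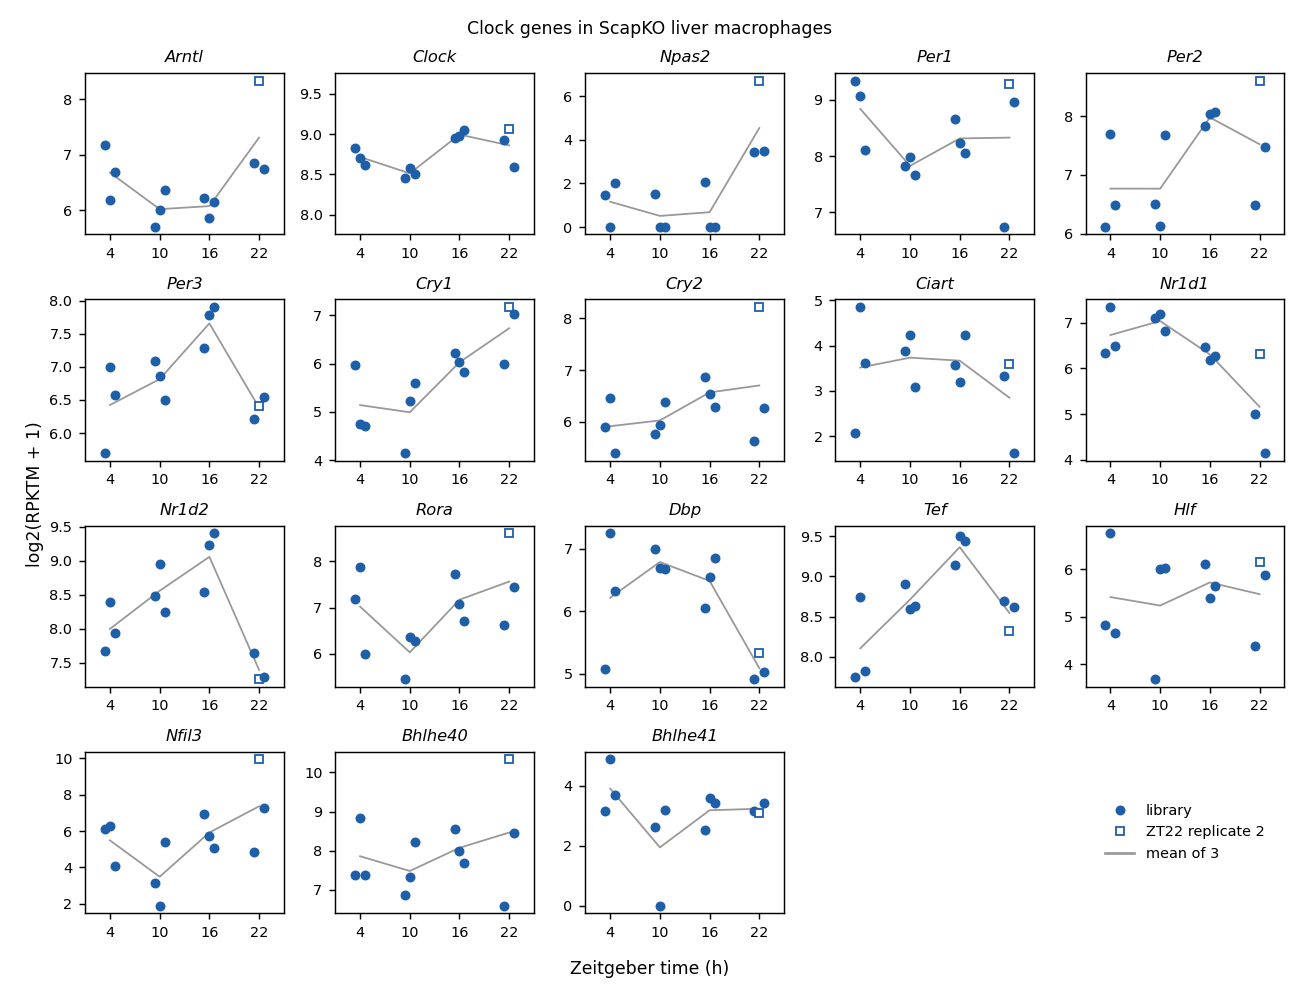
Level of the 18 tested clock genes, as log2(RPKTM + 1), in each library by zeitgeber time, with the line through the means of 3 libraries. Per3, Nr1d2 and Tef have all 3 ZT16 libraries at or near the top, Nr1d1 and Dbp are low at ZT22, and for Arntl, Npas2, Nfil3 and Bhlhe40 the ZT22 mean includes a high replicate 2 (open square).

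The clock works through short DNA elements in promoters, so the 250 bases before each start were read for them in the RefSeq promoter table (GRCm38.p6, a later build than the mm9 used for the levels). The E-box CACGTG, bound by CLOCK and ARNTL, was in 6.02% of the 32851 windows on either strand, the D-box (TTATGTAA or TTACGTAA), bound by DBP, TEF, HLF and NFIL3, in 0.931%, and the core of the REV-ERB and ROR element (TAGGTCA or TGGGTCA) in 5.38%. The 4 clock genes whose levels had an unadjusted p below 0.05 and whose windows held an element are shown, with the element in capitals. Each run ends at most 30 bases after its last element and before the start.
Per3 D-boxes, chr4:151044786-151044900, minus strand: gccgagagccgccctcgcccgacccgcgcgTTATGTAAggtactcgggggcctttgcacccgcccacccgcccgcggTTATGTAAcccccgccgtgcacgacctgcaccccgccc
Cry1 E-box, chr10:85185079-85185144, minus strand: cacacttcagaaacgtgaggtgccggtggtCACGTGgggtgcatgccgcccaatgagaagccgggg
Tef E-box, chr15:81811246-81811311, plus strand: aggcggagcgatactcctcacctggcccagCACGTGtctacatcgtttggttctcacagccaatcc
Nfil3 element on the opposite strand, chr13:52981040-52981081, minus strand: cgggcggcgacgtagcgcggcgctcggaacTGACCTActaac
The D-boxes of Per3 began 205 and 158 bases before its start, and no other clock gene with a window held that word. The E-box of Cry1 began 60 bases before the start, that of Tef 138 bases before the start of the transcript measured here, and Per1, Ciart and Bhlhe41 held E-boxes as well. In all, 3 of the 5 PER, CRY and Ciart genes with a window held an E-box, and 2 of the 5 output factors did. Counted the same way, by gene with a match in any window, 6.86% of 27025 symbols held the E-box. The D-box was in 1.095% of these symbols and the REV-ERB and ROR core in 6.15%. Windows were given for 4 of the 4 activators and 4 of the 4 REV-ERB and ROR genes listed, and none of them held any of the 3 words in these 250 bases. These are matches of letters and not measured sites.

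The same fit was run in the tables of ScapKO hepatocytes and of Control liver macrophages, each with 12 libraries at the same times. The tables were normalised apart, so values stand side by side and no test was made between them. In ScapKO hepatocytes 11 of 19 clock genes passed an adjusted p below 0.05 (limma F), against 164 of 12724 genes in all (about 1.3%). In Control liver macrophages 0 of 17 passed, against 0 of 12180 (0%), and 9 of the 17 had an unadjusted p below 0.05 (10.5% of all genes), the same number as the 9 of 18 in ScapKO macrophages. The median residual SD on the log2 scale was 0.49 in ScapKO macrophages, 0.37 in ScapKO hepatocytes and 0.58 in Control macrophages. The distance from lowest to highest time had a median over the clock genes of 1.28 in ScapKO macrophages, 1.86 in ScapKO hepatocytes and 2.0 in Control macrophages. Over all tested genes of ScapKO macrophages the median was 0.68, and no such median is given for the other tables. This distance also grows with the spread between libraries, and in ScapKO macrophages it includes ZT22 replicate 2. The distance was larger in ScapKO hepatocytes for 12 of 18 genes and in Control macrophages for 12 of 17.

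Dbp spanned 1.70 ± 0.45 in ScapKO macrophages, 4.99 ± 0.50 in ScapKO hepatocytes and 4.04 ± 0.64 in Control macrophages. Arntl spanned 1.3 ± 0.41, 4.17 ± 0.43 and 2.13 ± 0.55 in the same order of tables, with ZT22 highest and ZT10 lowest in all 3. Per3 spanned 1.27 ± 0.33, 3.71 ± 0.43 and 2.41 ± 0.61, and its highest time was ZT16, ZT10 and ZT4. Nr1d1 spanned 1.9 ± 0.46, 3.31 ± 0.34 and 3.08 ± 0.71, with its highest mean at ZT10 in ScapKO macrophages and at ZT4 in both other tables. The highest time was the same as in ScapKO hepatocytes for 9 of 18 genes and 6 h away for the other 9. Against Control macrophages it was the same for 7 of 17, 6 h away for 8 and 12 h away for 2.

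**Figure D3:**
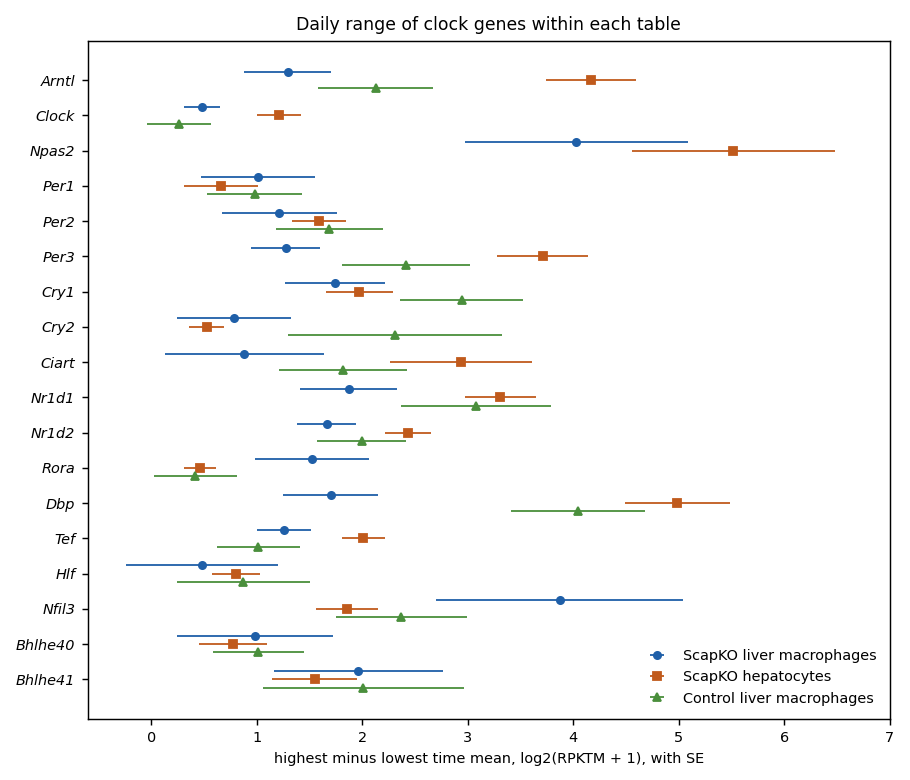
Distance between the highest and the lowest time mean of each clock gene, on the log2(RPKTM + 1) scale with the SE of the limma fit, within each of 3 tables that were normalised apart. Dbp, Arntl and Per3 span most in ScapKO hepatocytes and least in ScapKO liver macrophages.

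Outside the clock, many genes of protein folding had their highest mean at ZT4. Of the 20 heat shock genes, which encode chaperones, 15 had their highest mean at ZT4 (18% of all genes), 14 without ZT22 replicate 2 (23.5%), and 6 had an unadjusted p below 0.05 with and without that library (8.58% and 10.9% of all genes). JTK_CYCLE with the series entered 2 times called 1 of the 20, Dnajb1 (17.5% of all genes). Hsph1, an exchange factor for HSP70, held 274, 382 and 513 at ZT4, 125, 168 and 131 at ZT10, 319, 223 and 394 at ZT16, and 137, 125 and 235 at ZT22 RPKTM. The ZT4 libraries of Hsph1 all lay above the ZT10 libraries, by 1.4 ± 0.31 (limma F, unadjusted p below 0.05, adjusted p = 0.523). Dnaja1, a cochaperone of HSP70, held 239.6, 333 and 315 at ZT4, 149, 171 and 187 at ZT10, 216, 216 and 261 at ZT16, and 155, 91.3 and 176 at ZT22 RPKTM (limma F, unadjusted p below 0.05, adjusted p = 0.523). Chordc1, a cochaperone of HSP90, held 211, 306 and 307 at ZT4, 137, 163 and 146 at ZT10, 127, 209.7 and 316 at ZT16, and 157, 70.1 and 131 at ZT22 RPKTM (limma F, unadjusted p below 0.05, adjusted p = 0.544). Dnajb1 departed from this order, being lowest at ZT22 with no peak at ZT4, at 94.7, 91.3 and 168 at ZT4, 104, 144 and 111 at ZT10, 94.7, 90.6 and 158 at ZT16, and 65.7, 46.4 and 59.2 at ZT22 RPKTM (limma F, unadjusted p below 0.05, adjusted p = 0.538, and adjusted p = 0.471 without ZT22 replicate 2).

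Most genes of the endoplasmic reticulum chaperone list had their highest mean at the same time. Of 21 tested genes of the unfolded protein response, 15 were highest at ZT4 (18% of all genes) and 17 without ZT22 replicate 2 (23.5%), and 7 had an unadjusted p below 0.05 (8.58% of all genes), 10 without that library (10.9%). JTK_CYCLE with the series entered 2 times called 8 of the 21 (17.5% of all genes). Hspa5 (BiP), the main chaperone of the compartment, held 3023, 4187 and 4122 at ZT4, 1832, 1962 and 1884 at ZT10, 2025, 2317 and 3175 at ZT16, and 2161, 2867 and 2013 at ZT22 RPKTM. The ZT4 libraries of Hspa5 lay above all at ZT10, and the limma F-test gave an unadjusted p below 0.05, adjusted p = 0.523, or an adjusted p = 0.223 without ZT22 replicate 2. Hyou1 held 1504, 2323 and 1685 at ZT4, 981, 695 and 796 at ZT10, 921, 806 and 923 at ZT16, and 929, 1759 and 951 at ZT22 RPKTM, with ZT22 replicate 2 the only library outside ZT4 that reached the ZT4 range (limma F, unadjusted p below 0.05, adjusted p = 0.523, and adjusted p = 0.155 without it). Creld2 held 136, 163 and 233 at ZT4, 88.9, 89.8 and 68.3 at ZT10, 71.7, 86.0 and 110.4 at ZT16, and 72.3, 134 and 96.7 at ZT22 RPKTM (limma F, unadjusted p below 0.05, adjusted p = 0.53). Sdf2l1 was nearly level at ZT4 and ZT10 and lowest at ZT22. It held 144, 130 and 185 at ZT4, 137, 136 and 166 at ZT10, 89.3, 124 and 120 at ZT16, and 107, 57.5 and 70.6 at ZT22 RPKTM (unadjusted p below 0.05, adjusted p = 0.523 by limma F).

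Corticosterone in mice peaks near the start of the dark phase. Most of its targets tested here had their highest mean at ZT4, while Fkbp5 had its highest mean at ZT16. Of 13 tested glucocorticoid targets 9 were highest at ZT4 (18% of all genes), 7 without ZT22 replicate 2 (23.5%). An unadjusted p below 0.05 was found for 3 with all libraries (8.58% of all genes) and for 3 without that library (10.9%). JTK_CYCLE with the series entered 2 times called 1 of the 13 (17.5% of all genes). Fkbp5, a cochaperone that the receptor induces, held 723, 689.6 and 626 at ZT4, 506, 484 and 355 at ZT10, 868, 809.9 and 937 at ZT16, and 398, 292 and 578 at ZT22 RPKTM, with the ZT16 libraries all above the other 9 (limma F, unadjusted p below 0.05, adjusted p = 0.523). Zbtb16 held 427, 859.8 and 192 at ZT4, 52.4, 46.6 and 16.8 at ZT10, 437, 99.1 and 109 at ZT16, and 37.0, 768 and 228 at ZT22 RPKTM and was low in all ZT10 libraries and in ZT22 replicate 1 (limma F, unadjusted p below 0.05, adjusted p = 0.54). Klf9 held 534, 606 and 288 at ZT4, 212, 236 and 171 at ZT10, 352, 259 and 253 at ZT16, and 235, 579 and 382 at ZT22 RPKTM (limma F, unadjusted p below 0.05, adjusted p = 0.552), also lowest at ZT10. Zbtb16 and Klf9 were both high in ZT22 replicate 2 and ZT4 replicate 2, the libraries with the most hepatocyte RNA.

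The AP-1 subunits Jund and Jun were lowest at ZT16. Jund held 522, 543 and 471 at ZT4, 505, 319 and 311 at ZT10, 359.5, 352 and 302 at ZT16, and 500.1, 570.5 and 659.6 at ZT22 RPKTM, and the ZT22 libraries all lay above the ZT16 libraries, by 0.77 ± 0.21 (limma F, unadjusted p below 0.05, adjusted p = 0.523). Jun held 447, 497 and 417 at ZT4, 418, 303 and 242 at ZT10, 226, 285 and 399.8 at ZT16, and 478, 897 and 515 at ZT22 RPKTM (limma F, unadjusted p below 0.05, adjusted p = 0.523), with ZT22 replicate 2 highest. Nr4a1, an immediate early nuclear receptor, was highest at ZT16, where Jun was lowest, at 185, 128 and 143 at ZT4, 158, 141 and 101 at ZT10, 236, 208 and 240.2 at ZT16, and 143, 127 and 166 at ZT22 RPKTM with the ZT16 libraries above all 9 others (limma F, unadjusted p below 0.05, adjusted p = 0.548). Of the 21 genes of this list 3 had an unadjusted p below 0.05 (8.58% of all genes), and 4 without ZT22 replicate 2 (10.9%).

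Interferon-stimulated and antigen-presenting genes mostly had their highest means at ZT10. Of 22 interferon-stimulated genes 14 peaked at ZT10 (34.8% of all genes), 14 without ZT22 replicate 2 (32.3%). Another 7 were highest at ZT4 with and without that library (18% and 23.5% of all genes). An unadjusted p below 0.05 was found for 5 (8.58% of all genes), and 13 met the JTK_CYCLE criteria with the series entered 2 times (17.5% of all genes). Irf7, the regulator of type I interferon, held 1568, 1092 and 1855 at ZT4, 2491, 1892 and 2351 at ZT10, 1273, 1708 and 1477 at ZT16, and 1119, 585 and 1479 at ZT22 RPKTM (limma F, unadjusted p below 0.05, adjusted p = 0.545). Gbp2, a guanylate-binding protein, held 347, 247 and 410.1 at ZT4, 564, 430.3 and 414 at ZT10, 304, 418 and 315 at ZT16, and 286, 181 and 163 at ZT22 RPKTM, with all ZT10 libraries above all ZT22 libraries (limma F, unadjusted p below 0.05, adjusted p = 0.523). Cxcl9, a chemokine induced by interferon-gamma, was counted with the inflammatory cytokines and chemokines and not with these 22. Of the 20 tested genes of that other list 2 had an unadjusted p below 0.05, with and without ZT22 replicate 2 (8.58% and 10.9% of all genes). Cxcl9 held 39.1, 41.3 and 29.4 at ZT4, 63.1, 82.0 and 149 at ZT10, 48.9, 60.0 and 27.9 at ZT16, and 16.1, 36.6 and 31.7 at ZT22 RPKTM, 1.75 ± 0.43 higher at ZT10 than at ZT22 (limma F, unadjusted p below 0.05, adjusted p = 0.523). Without ZT22 replicate 2 the count of 5 interferon-stimulated genes was 3 (10.9% of all genes). Relative to each gene's mean over the 12 libraries, the median of the 22 members was -1.10 on the log2 scale in that library and -0.18 and -0.25 in the other ZT22 libraries.

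All 8 genes of MHC class II, which presents antigen, had their highest mean at ZT10 (34.8% of all genes), 7 without ZT22 replicate 2 (32.3%). With 12 libraries 1 had an unadjusted p below 0.05 (8.58% of all genes), and without that library 5 had (10.9%). H2-DMa, which loads peptide, held 547, 530.4 and 755 at ZT4, 1163, 781 and 919 at ZT10, 515, 642 and 586 at ZT16, and 584, 275 and 610.4 at ZT22 RPKTM (limma F, unadjusted p below 0.05, adjusted p = 0.548, and adjusted p = 0.281 without ZT22 replicate 2). H2-DMb1 held 331, 314 and 447 at ZT4, 543, 578 and 685 at ZT10, 365, 406 and 347 at ZT16, and 395, 76.0 and 429.6 at ZT22 RPKTM (limma F, adjusted p = 0.642, and adjusted p = 0.25 without it). In a separate list of 22 tested phagocytosis and efferocytosis receptors, 3 had an unadjusted p below 0.05 (8.58% of all genes), and 6 without ZT22 replicate 2 (10.9%). With and without that library 12 were highest at ZT10 (34.8% and 32.3% of all genes) and 6 at ZT22 (26% and 22.9%). The 3 were Fcgr4, Fcgr2b and Mfge8. Fcgr4, an activating antibody receptor, held 574, 368 and 663 at ZT4, 853, 853 and 1206 at ZT10, 543, 963 and 720 at ZT16, and 543, 161 and 516 at ZT22 RPKTM and was highest at ZT10 too (limma F, unadjusted p below 0.05, adjusted p = 0.548). Fcgr2b, the inhibitory antibody receptor that sinusoidal endothelium also carries in quantity, went the other way, at 73.1, 116 and 80.4 at ZT4, 86.0, 111 and 173 at ZT10, 184, 111 and 90.0 at ZT16, and 197, 1286 and 355 at ZT22 RPKTM (limma F, unadjusted p below 0.05, adjusted p = 0.523), as did Mfge8, at 14.4, 12 and 12.2 at ZT4, 14.4, 16.1 and 7.93 at ZT10, 18.4, 8.52 and 9.84 at ZT16, and 28.7, 163 and 43.9 at ZT22 RPKTM (limma F, unadjusted p below 0.05, adjusted p = 0.523). Pan-macrophage markers were themselves highest at ZT10 for 10 of 12 genes (34.8% of all genes), 9 without ZT22 replicate 2 (32.3%). The ZT10 libraries were among the 4 with the lowest hepatocyte marker sums.

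**Figure D4:**
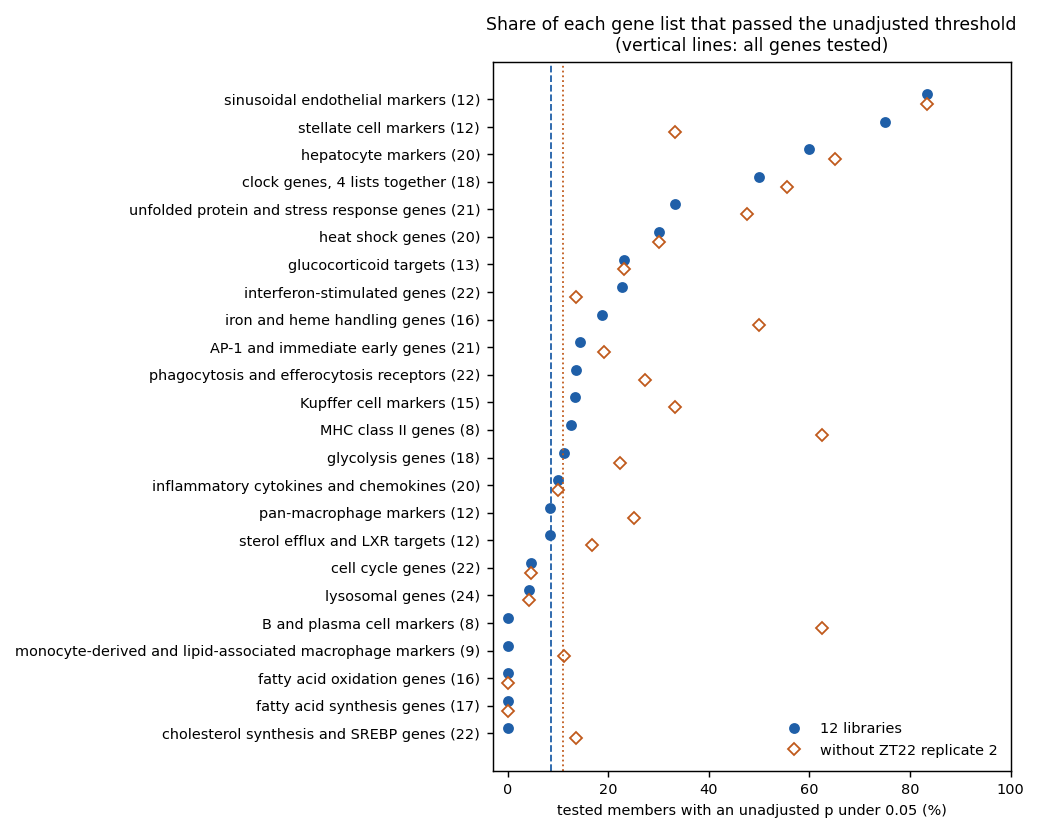
Share of the tested members of each gene list (number tested in parentheses) with an unadjusted p below 0.05 in the limma F-test over the 4 times, with 12 libraries (filled) and without ZT22 replicate 2 (open). The vertical lines mark all tested genes, 8.58% and 10.9%, and markers of endothelium, stellate cells and hepatocytes and the clock genes lie furthest to the right with 12 libraries.

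Kupffer cells recycle iron from old red cells and degrade what they take up in lysosomes. Among 16 iron and heme genes 3 had an unadjusted p below 0.05 (8.58% of all genes), and 8 without ZT22 replicate 2 (10.9%). Spic, the factor of red pulp and other heme-handling macrophages, held 139.8, 121 and 199 at ZT4, 277, 310.3 and 282 at ZT10, 191, 265 and 360.4 at ZT16, and 232, 65.2 and 133 at ZT22 RPKTM and was lowest at ZT4 and ZT22 (limma F, unadjusted p below 0.05, adjusted p = 0.548). The other 2, Hpx and Hp, encode plasma proteins that hepatocytes secrete, and both had their lowest mean at ZT10, as albumin did. Of 24 lysosomal genes 17 were highest at ZT10 (34.8% of all genes), 14 without ZT22 replicate 2 (32.3%). Only 1, Atp6v0d2, had an unadjusted p below 0.05 (8.58% of all genes), against 1 without that library (10.9%). Aurkb, a mitotic kinase, was the 1 of 22 cell cycle genes with an unadjusted p below 0.05 (8.58% of all genes), at 37.1, 26.3 and 37.3 at ZT4, 57.2, 16.8 and 30.9 at ZT10, 49.5, 28.7 and 36.2 at ZT16, and 16.5, 1.0 and 5.61 at ZT22 RPKTM (limma F, unadjusted p below 0.05, adjusted p = 0.523), and without ZT22 replicate 2 the count was 1 as well (10.9% of all genes).

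Sterol and lipid synthesis is the programme that Scap controls in hepatocytes. Of 22 tested genes of cholesterol synthesis and SREBP 0 had an unadjusted p below 0.05 (8.58% of all genes), and 3 had without ZT22 replicate 2 (10.9%). Fatty acid synthesis (17 genes) and fatty acid oxidation (16 genes) had 0 with and without that library. Of the 22 cholesterol and SREBP genes 15 were highest at ZT22 (26% of all genes), and 7 without ZT22 replicate 2 (22.9%). Of the 17 fatty acid synthesis genes 8 were highest at ZT22 (26%) and 6 at ZT4 (18%). Without that library these counts were 1 (22.9%) and 12 (23.5%). Insig2, which holds SCAP in the endoplasmic reticulum, held 227, 427 and 149 at ZT4, 101, 103 and 176 at ZT10, 199, 193 and 151 at ZT16, and 208, 2230 and 327 at ZT22 RPKTM and was highest in ZT22 replicate 2 by far (limma F, adjusted p = 0.587). Abca1, the LXR target that exports cholesterol from macrophages, was the 1 of 12 sterol efflux genes with an unadjusted p below 0.05, a share near that of all genes, and without ZT22 replicate 2 there were 2. It held 8275, 5426 and 6717 at ZT4, 4141, 4098 and 3988 at ZT10, 5205, 4789 and 4902 at ZT16, and 4373, 3270.1 and 4337 at ZT22 RPKTM, with all ZT4 libraries above all libraries of the other times (limma F, unadjusted p below 0.05, adjusted p = 0.54, and adjusted p = 0.25 without ZT22 replicate 2).

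Glycolysis genes were highest at ZT10 for 15 of 18 members (34.8% of all genes), 15 without ZT22 replicate 2 (32.3%), and 2 had an unadjusted p below 0.05 (8.58% of all genes), 4 without that library (10.9%). Slc16a3, the lactate exporter MCT4, held 12.4, 7.52 and 23.2 at ZT4, 36.7, 32.6 and 25.1 at ZT10, 34.7, 39.3 and 29.7 at ZT16, and 16.8, 14.4 and 16.1 at ZT22 RPKTM and was lowest at ZT4 (limma F, unadjusted p below 0.05, adjusted p = 0.539). Hif1a, which drives many of these genes, held 306, 284 and 303 at ZT4, 379, 413 and 537 at ZT10, 383, 399 and 403 at ZT16, and 355, 209.6 and 335 at ZT22 RPKTM (limma F, unadjusted p below 0.05, adjusted p = 0.582). Eno1 held 680, 753 and 694 at ZT4, 878, 778 and 826 at ZT10, 722, 719.7 and 620 at ZT16, and 741, 323 and 769 at ZT22 RPKTM, and apart from ZT22 replicate 2 its values lay between 620 and 878 (limma F, adjusted p = 0.721).

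**Figure D5:**
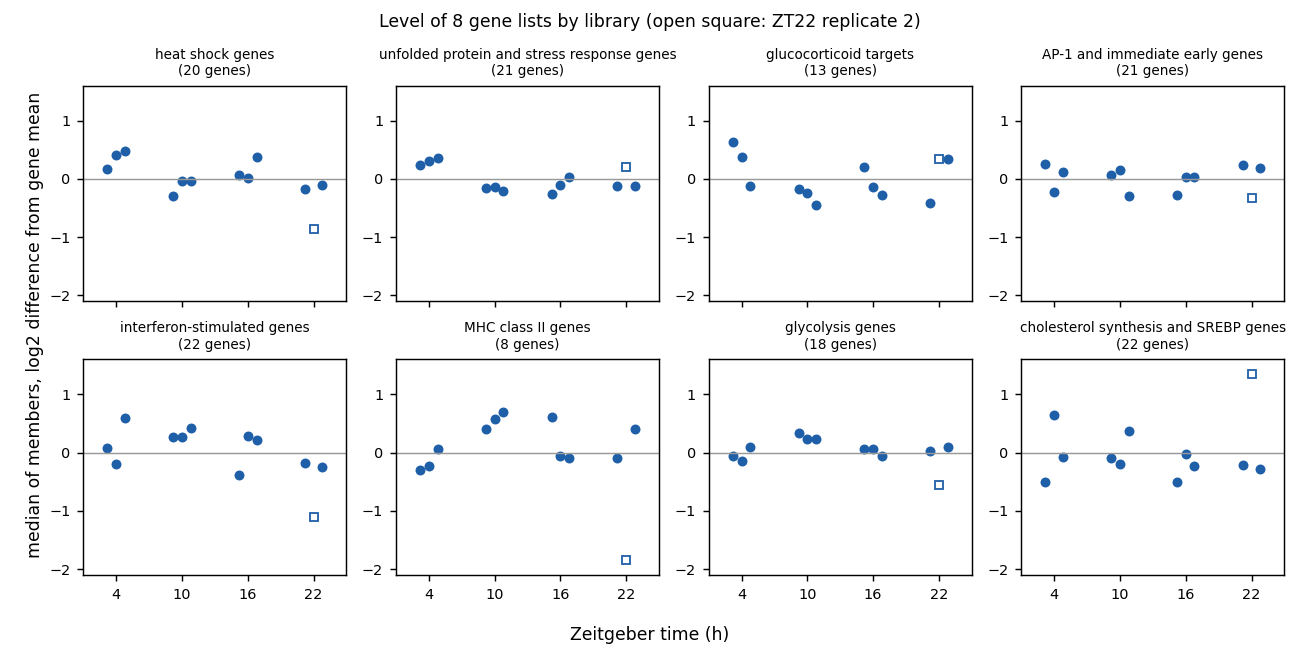
Level of 8 gene lists in each library by zeitgeber time, as the median over the tested members of the log2(RPKTM + 1) difference from the gene's mean over 12 libraries. Unfolded protein response genes are highest in the 3 ZT4 libraries, MHC class II and glycolysis genes are high in the ZT10 libraries, and ZT22 replicate 2 (open square) is the extreme library in 6 of the 8 panels.

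Scap itself held 582, 665 and 639 at ZT4, 757, 523 and 699.9 at ZT10, 633, 708 and 575 at ZT16, and 646, 1018 and 659 at ZT22 RPKTM (limma F, adjusted p = 0.834), a level that varied little outside ZT22 replicate 2. Since the deletion is in hepatocytes and no control stands in the same table, this is no check of the genotype. Of the other genes that the study names in macrophages, Pdgfrb, the receptor of stellate cells and pericytes, held 13.6, 18.4 and 9.84 at ZT4, 14.4, 11.7 and 18.5 at ZT10, 25.9, 15.6 and 18.3 at ZT16, and 33.0, 137 and 28.7 at ZT22 RPKTM (limma F, unadjusted p below 0.05, adjusted p = 0.548, and adjusted p = 0.588 without ZT22 replicate 2). Bmpr1a held 233, 233 and 203 at ZT4, 204, 225 and 199 at ZT10, 314, 246 and 273 at ZT16, and 212, 120.4 and 209.6 at ZT22 RPKTM and was highest at ZT16 (limma F, adjusted p = 0.632). Vdr, the vitamin D receptor, stayed at 8.52 RPKTM or less in every library (limma F, adjusted p = 0.619).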

How the data were processed

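Total RNA of isolated liver macrophages was depleted of ribosomal RNA and made into stranded libraries. The authors aligned the reads to mm9 with STAR, measured RefSeq transcripts with HOMER as RPKM-type values (reads per kilobase at a fixed total of reads, called RPKTM), and deposited them quantile normalised within each table. Tool versions and the use of strand in counting are not given in the sources used here. Each of the 12 deposited columns held the same set of values, with 12962 of 42322 transcripts at 0, so depth is unknown, intervals and floors cannot be given, and low values carry ties. 3650 transcripts were at 0 in all 12.

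Gene symbols were the text before the bar in the deposited annotation, with the transcript of highest mean kept for each. Genes needed over 5 RPKTM in at least 3 libraries. The test was a moderated F-test (limma 3.58.1, R 4.3.3, mean trend in the prior) over 4 time means of log2(RPKTM + 1), a scale that understates changes of low genes, with contrasts ZT16 against ZT4 and ZT22 against ZT10 and a threshold of 0.05. JTK_CYCLE was rewritten in Python, with periods of 18 and 24 h, 7 patterns, and calls at 24 h with a ratio of time means over 1.5. Both were tested on simulated data. Gene coordinates are 1-based mm9 from the deposited table.

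Named genes were all tested clock genes, Scap, the genes that the study names in macrophages, up to 4 genes of smallest p in each other pathway list, and for each marker list the gene of highest mean. A rule for genes past the threshold named none. Some list members are not reported here and were left out of the lists and their counts. Members and lists were chosen with earlier results of these data known. Alternatives were the pseudocount, the filter, all transcripts, marker scores as covariates, cosine terms, the replicate number as a block, and leaving out each library. Numbers in the column headings whose meaning the sources do not give were not used.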

Additional observations from a re-analysis of the deposited data

How the results depend on the processing

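The absence of genes past the adjusted threshold over the 4 times (limma) held with pseudocounts of 0.1 and 5, all transcripts, a filter of 50 RPKTM, cosine terms, the replicate block and each library left out (0 to 0 genes, 840 to 3351 at an unadjusted p below 0.05, the highest without ZT22 replicate 1). It did not hold without a filter (2 genes), with the mean log2 level of the hepatocyte markers as a covariate (82 genes, mostly highest at ZT22) or with that of the pan-macrophage markers (11, chosen after seeing the data, as was the filter of 50). The 82 genes held the endothelial markers Ptprb, Kdr, Fcgr2b, Clec4g, Eng, Dnase1l3, Egfl7 and Oit3 and the stellate markers Rgs5, Lrat and Dcn. Other members of the gene lists among them were Cyp2e1, Thrsp, Mx1, Nr1d1 and Hsph1. For ZT16 against ZT4 the hepatocyte covariate gave 7 genes, and leaving out a library gave 0 to 0. For ZT22 against ZT10 there were 2 genes without a filter, 3 with the hepatocyte covariate, 2 with the pan-macrophage covariate, 4 with the replicate block, and 0 to 2191 with a library left out. JTK_CYCLE called 2435 genes as reported, 473 with the series entered 1 time, 0 after adjustment, 1454 with a ratio over 2, 4588 of 27361 transcripts, and 1363 to 3831 with a library left out. The cause of these shifts was not tested.

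Replicate numbers do not pair the libraries: deviations of same-numbered libraries correlated at -0.371 to 0.512, and those of different numbers at -0.492 to 0.455. Library quality weights (limma) did not converge and were not used. Of the genes named by rule, Nr1d1 (adjusted p = 0.0432), Hsph1 (0.0487) and Fcgr2b (0.00897) passed with the hepatocyte covariate, and Nr1d1 (0.0438) and Hyou1 (0.0438) did with the pan-macrophage covariate (limma F). Peak minus trough changed sign with the hepatocyte covariate for Per1 (-0.0007), Hlf (-0.13), Bhlhe40 (-0.97), Sc5d (-0.27), Gpam (-0.59), Trem2 (-0.70) and Alas2 (-0.61). It did with the pan-macrophage covariate for Bhlhe40 (-0.58), Eno1 (-0.0056), Sc5d (-0.21), Gpam (-0.41), Csf1r (-0.15), Trem2 (-0.19) and Alas2 (-0.17), and for Hlf without ZT10 replicate 1 (-0.29, with a range of -0.29 to 0.88 over the libraries left out). Depth is unknown, so no limit from it can be given.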

Other observations

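B and plasma cell markers were a further group that differed between libraries. The 8 markers summed to 1044, 758 and 587 RPKTM at ZT4, to 978, 1307 and 1578 at ZT10, to 1057, 847 and 794 at ZT16, and to 1407, 596 and 2043 at ZT22. With 12 libraries 0 of the 8 had an unadjusted p below 0.05 (limma F, 8.58% of all genes), and 5 were highest at ZT10 (34.8%) and 3 at ZT22 (26%). Without ZT22 replicate 2 there were 5 (10.9%), with the highest mean at ZT22 for 7 of the 8 (22.9%). That ZT22 mean rests on replicate 1 and replicate 3 alone.

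Markers of monocyte-derived and lipid-associated macrophages, among them Trem2, a lipid receptor, spread more between libraries of 1 time than between times. The 12 markers summed to 529, 468 and 1498 RPKTM at ZT4 and to 795, 559 and 1258 at ZT10. At ZT16 they summed to 224, 743 and 538, and at ZT22 to 641, 314 and 298. Of the 9 tested, 0 had an unadjusted p below 0.05 (limma F, 8.58% of all genes), and 1 had without ZT22 replicate 2 (10.9%).

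The gene of smallest p over the 4 times, named here after its values were seen, was Serpina1e (limma F, adjusted p = 0.523). It belongs to the alpha-1-antitrypsin family that hepatocytes secrete, and its highest mean was at ZT22 and its lowest at ZT10, as for albumin (Alb). With the hepatocyte marker score as a covariate Serpina1e passed (limma F, adjusted p = 0.0218), while Alb did not (adjusted p = 0.758). Alb is itself among the markers averaged into that score and Serpina1e is not, so these results cannot be set against each other. Serpina1e was also picked by its p from the same values, and the part of hepatocyte RNA in its time course was not tested.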
